A study of Homo sapiens with 26 samples.

Results

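VSIR, PSAP and CHST3 are 3 protein-coding genes that follow each other along 266 kb of the long arm of chromosome 10, and they were examined in the transcriptomes of single cell-derived cell lines (SCDCLs) of pancreatic ductal adenocarcinoma. They were found as the rows of the deposited table whose Ensembl identifiers map to these symbols, 3 of 41078 genes. The set was chosen by expression values, since all 3 genes were near zero in the SCDCLs with SMAD4 under 1 TPM, a level scaled to transcript length and library, and expressed in the others. This contrast is therefore given as a description, with no test.

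Each SCDCL was grown from 1 cell of the line BxPC3, a classical-like pancreatic cancer line, or of Panc-1, a basal-like line, and each was sequenced once, as polyadenylated messenger RNA. The labels give 12 SCDCLs as BxPC3 and 14 as Panc-1, all cultured in the same serum-containing medium, and they name gemcitabine as the treatment of all 26 without a dose or time for the sequenced cells. Per the methods of the study, SCDCLs were isolated by limiting dilution and RNA was collected once a flask had grown up. Each SCDCL is 1 clone, so a difference between 2 SCDCLs has no replicate cultures behind it, and every n below counts clones.

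The labels did not follow SMAD4, which BxPC3 is known to have lost. SMAD4 lay between 0 and 0.0440 TPM in 12 SCDCLs, of which 5 were labelled BxPC3 and 7 were labelled Panc-1 (here called SMAD4-low). It lay between 28.1 and 52.2 TPM in the other 14, of which 7 carried each label (here called SMAD4-expressing). No SCDCL lay between these ranges, and SMAD4 went against the label of 14 of the 26. Some labels or columns may therefore be wrong, which was not tested, and every comparison by label compares labels and not the parental lines. The SMAD4-low SCDCLs had the epithelial adhesion gene CDH1 at 90.8 to 198 TPM and the mesenchymal filament gene VIM at 1.42 to 73.2 TPM, and the SMAD4-expressing SCDCLs had CDH1 at 0.338 to 7.74 TPM and VIM at 3047 to 4526 TPM. SCDCLs are numbered as in their labels, and 27035724 to 34945608 estimated counts were assigned per library, with a median of 29623513. Of 5 markers of immune, endothelial and stromal cells, PTPRC and CD3E stayed at or below 0.535 TPM in every library. COL1A1 and PECAM1 were detected in every library. COL1A1 lay at 8.92 to 26.5 TPM in the SMAD4-low and 2.06 to 38.5 TPM in the SMAD4-expressing SCDCLs. PECAM1 lay at 0.897 to 6.07 TPM and 0.321 to 5.38 TPM, respectively. The sum of the 5 was 19.3 to 54.8 TPM in the SMAD4-low and 48.2 to 154 TPM in the SMAD4-expressing SCDCLs. Most of the latter was CD68, a lysosomal membrane gene also used as a macrophage marker, at 42.5 to 141 TPM against 5.27 to 26.9 TPM, and the part of these markers in the results was not tested.

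PSAP encodes prosaposin, a precursor that is carried to the lysosome and cut there into the saposins, small proteins that present sphingolipids to the enzymes that degrade them. Uncut prosaposin is also secreted and binds progranulin. VSIR encodes VISTA, an inhibitory receptor and ligand of the B7 family that is best known from myeloid cells and T cells and is also found on some tumor cells. CHST3 encodes a Golgi enzyme that adds sulfate to the galactosamine residues of chondroitin sulfate, a sugar chain carried by proteoglycans of the cell surface and the matrix. The products share no pathway, and what the genes have in common is their position.

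On GRCh38, VSIR (ENSG00000107738) lies on the minus strand of chromosome 10 from 71747556 to 71773520, PSAP (ENSG00000197746) on the minus strand from 71816298 to 71851251, and CHST3 (ENSG00000122863) on the plus strand from 71964395 to 72013558. The gap from VSIR to PSAP is 42.8 kb and that from PSAP to CHST3 is 113.1 kb. VSIR lies inside the body of CDH23, a cadherin gene on the opposite strand, and shares 0 exon bases with it, and PSAP ends 351 bases beyond CDH23. No exon base is shared among VSIR, PSAP and CHST3, so no read had to be divided between 2 of them because of overlapping exons. Likeness of their transcript sequences was not checked.

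The sequences before the starts of VSIR and CHST3 are shown because both genes were silent or nearly so in the same 12 SCDCLs. Each is the 250 bases before the RefSeq start on GRCh38.p14, read 5′ to 3′ on the strand of the gene, and capitals mark matches to the GC box letters GGGCGG on either strand.
VSIR (chr10:71773521-71773770, minus strand): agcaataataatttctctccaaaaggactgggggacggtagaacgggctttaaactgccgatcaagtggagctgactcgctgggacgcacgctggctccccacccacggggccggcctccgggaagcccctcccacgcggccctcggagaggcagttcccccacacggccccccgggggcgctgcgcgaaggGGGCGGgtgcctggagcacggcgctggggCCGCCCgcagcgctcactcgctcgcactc
CHST3 (chr10:71964145-71964394, plus strand): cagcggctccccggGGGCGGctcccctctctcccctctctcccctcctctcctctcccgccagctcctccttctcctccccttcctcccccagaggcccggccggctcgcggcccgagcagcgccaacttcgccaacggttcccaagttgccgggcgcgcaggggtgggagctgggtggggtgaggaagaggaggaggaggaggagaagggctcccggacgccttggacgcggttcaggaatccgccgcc
The VSIR window held 2 GC boxes and 25 CG dinucleotides with 69.6% G and C, and the CHST3 window held 1 GC box and 21 CG dinucleotides with 72.4%. GC boxes are common, with at least 1 in 42.6% of 35114 RefSeq windows of this length. Fewer CG dinucleotides than in VSIR were found in 78.4% of these windows, and fewer than in CHST3 in 69.8%, against a median of 11. Neither window held the E-box letters CACGTG, found in 6.35% of all windows, or TATAAA, found on either strand in 10.7%. These matches describe letters, not bound sites.

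In the 12 SMAD4-low SCDCLs, no transcript of PSAP or VSIR was detected. PSAP was at 0 estimated counts in 12 of 12 libraries, and so was VSIR. A count of 0 allows at most 3 counts, which was a share of 0.0858 to 0.111 CPM (counts scaled to the library total) in these 12 libraries and covers counting error only. In bulk RNA, fewer expressing cells and less RNA per cell cannot be told apart.

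CHST3 was not fully absent from the SMAD4-low SCDCLs. It was at 0 in SCDCLs 2, 6 and 16. In the other 4 SCDCLs labelled BxPC3 it was at 0.979 estimated counts in SCDCL 24, 1.96 in SCDCL 25, 2.97 in SCDCL 21 and 6.90 in SCDCL 26. In the 7 labelled Panc-1 the lowest was 0, the median 1.95 and the highest 8.87, in SCDCL 1. On the TPM scale every one of the 12 stood at or below 0.0508, and the levels of the labels overlapped. Summed over the 12 libraries, CHST3 had 33.7 of 364129755 estimated counts, or 0.0934 CPM after rounding, with an exact Poisson 95% interval of 0.0647 to 0.130.

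The 14 SMAD4-expressing SCDCLs all expressed all 3 genes. PSAP was among the most abundant transcripts, at a lowest level of 1196 TPM in SCDCL 22, a median of 1893 TPM and a highest level of 3588 TPM in SCDCL 14. By TPM it ranked between 18 and 114 of all genes, with a median rank of 47. VSIR ran from 7.25 TPM in SCDCL 23 through a median of 14.8 TPM to 24.1 TPM in SCDCL 17. CHST3 ran from 9.15 TPM in SCDCL 18 through a median of 13.6 TPM to 22.6 TPM in SCDCL 14. For each gene the lowest SMAD4-expressing SCDCL lay above the highest SMAD4-low one, which is the pattern the set was chosen for.

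Means in the SMAD4-expressing SCDCLs were 2059 ± 665 TPM for PSAP, 15.4 ± 5.18 TPM for VSIR and 14.5 ± 3.89 TPM for CHST3 (SD, n = 14). In CPM, the lowest SMAD4-expressing SCDCL was at least 17324-fold higher than the floor of 3 counts per library for PSAP and at least 129-fold higher for VSIR. For CHST3, pooled CPM differed 853-fold, with an interval of 610 to 1231 that covers counting error only. On the log2(TPM + 1) scale, which understates the change of low genes, the mean difference between the sides was 10.9 for PSAP, 3.96 for VSIR and 3.89 for CHST3. Of 9413 genes with at least 5 TPM in every SMAD4-expressing SCDCL, 129, or 1.37%, were under 1 TPM in every SMAD4-low one, and the 3 genes are among these by choice. In the other direction, 178 of 9661 genes, or 1.84%, were under 1 TPM in every SMAD4-expressing SCDCL and at 5 TPM or more in every SMAD4-low one.

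**Figure D1:**
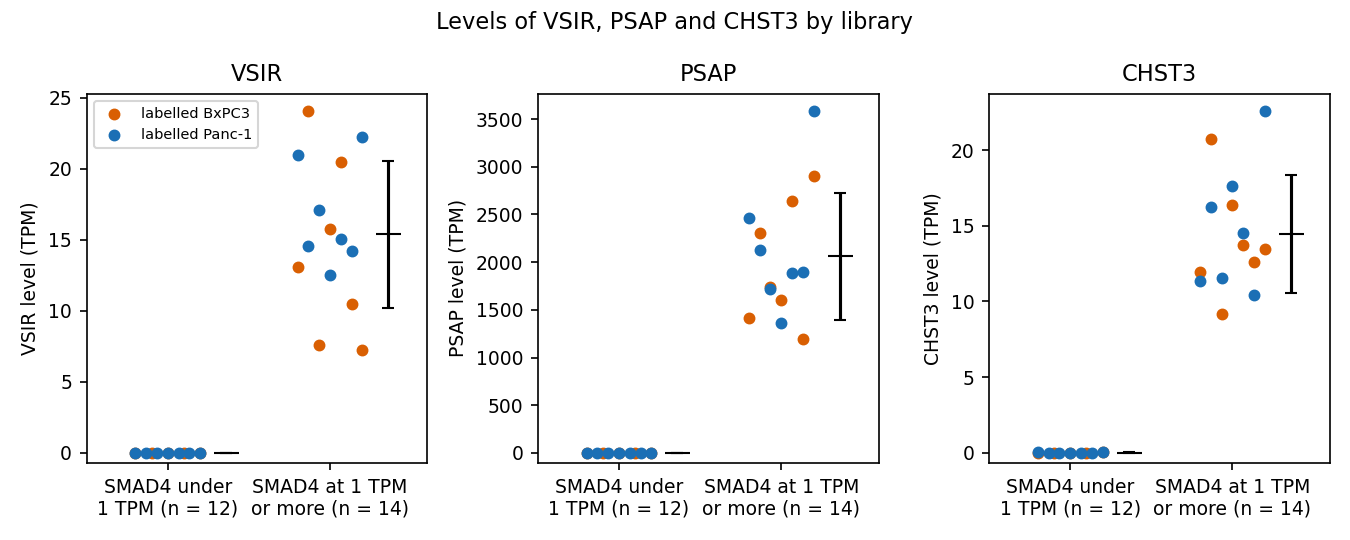
TPM of VSIR, PSAP and CHST3 (linear axes from 0) in each SCDCL, by side of the SMAD4 split and coloured by label, with the mean and SD drawn beside the points. All 12 SMAD4-low SCDCLs lie at or next to 0 and partly hide each other, whereas the 14 SMAD4-expressing ones spread from 7.25 to 24.1 TPM for VSIR, 1196 to 3588 TPM for PSAP and 9.15 to 22.6 TPM for CHST3, with both labels mixed.

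Levels under each label are given as a description, because the choice of the genes fixes that the sides cannot overlap in any subset of the SCDCLs. In the SCDCLs labelled BxPC3, PSAP was at 0 in 5 and at 1196 to 2902 TPM in 7, and in those labelled Panc-1 it was at 0 in 7 and at 1364 to 3588 TPM in 7. VSIR in the SMAD4-expressing SCDCLs ran from 7.25 to 24.1 TPM with the BxPC3 label and from 12.5 to 22.2 TPM with the Panc-1 label. CHST3 ran from 9.15 to 20.7 TPM and from 10.4 to 22.6 TPM, respectively. In the 5 SCDCLs labelled BxPC3 and the 7 labelled Panc-1 whose SMAD4 matched the label, these values are those of the SMAD4-low and the SMAD4-expressing SCDCLs, respectively.

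The choice of the genes did not use the label. It did fix levels near 0 in 5 of the 12 SCDCLs labelled BxPC3 and in 7 of the 14 labelled Panc-1. The label was tested with the quasi-likelihood test of edgeR on the whole table. In all 26 SCDCLs, VSIR had means of 16.9 CPM, here with normalization factors of edgeR, with the BxPC3 label and 17.1 CPM with the Panc-1 label, a log2 fold change of 0.02 ± 1.33 (SE; Panc-1 over BxPC3). PSAP had means of 1783 and 1679 CPM (log2 fold change -0.09 ± 1.74), and CHST3 had 44.5 and 40.8 CPM (-0.13 ± 1.26). The adjusted p was 1.00 for each. No gene passed an adjusted p of 0.05 (0 of 16008, or 0%), and 367 fell below 0.05 without adjustment. The standard errors are wide because each label holds SCDCLs from both sides of the split.

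Within the SMAD4-expressing SCDCLs, where the 3 genes could be measured well, levels by label overlapped for every one of them. VSIR averaged 29.0 CPM in the 7 labelled BxPC3 and 34.2 CPM in the 7 labelled Panc-1, a log2 fold change of 0.23 ± 0.25 (SE) with an adjusted p of 0.982 from edgeR. PSAP averaged 3057 and 3359 CPM, a log2 fold change of 0.13 ± 0.22 with an adjusted p of 0.991. CHST3 averaged 76.2 and 81.5 CPM, a log2 fold change of 0.09 ± 0.19 with an adjusted p of 0.993. Each difference was smaller than its standard error. No gene of 15161 passed the threshold (0, or 0%), and 700 fell below 0.05 without adjustment.

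Within the SMAD4-low SCDCLs none of the 3 genes passed the filter on low counts, so they were not tested. There edgeR called 0 of 16124 other genes (0%), with 1840 below 0.05 before adjustment. Its smallest adjusted p was 0.067, and DESeq2, run as an alternative, called 36 genes. The count of 0 thus does not show that the labels are alike on this side. The test of whether the label difference itself differed between the sides called 0 of 16008 genes (0%), with 1273 below 0.05 before adjustment. For CHST3 its log2 value was -0.02 ± 0.92 (SE), with an adjusted p of 1.00. For VSIR and PSAP it could not be estimated, since both genes are at 0 in all SMAD4-low libraries.

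Among the SMAD4-expressing SCDCLs, the spread of the 3 genes from clone to clone was moderate. The coefficient of variation was 33.6% for VSIR, 32.3% for PSAP and 26.9% for CHST3. The counting error, taken as the square root of the estimated counts, was smaller, with a median of 3.34% for VSIR, 0.349% for PSAP and 2.14% for CHST3. When the 14 SCDCLs were put in order of CPM, 0 of 13 neighbouring pairs differed by less than 2 SDs of this error for PSAP, 8 of 13 for VSIR and 8 of 13 for CHST3. The order of PSAP levels is thus resolved within these libraries, while many neighbours in the order of VSIR and CHST3 are not. This error covers counting only and includes neither the assignment of reads to transcripts nor the spread between cultures of 1 clone, which was not measured.

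PSAP exceeded VSIR and CHST3 in 14 of 14 SCDCLs. On the TPM scale, which accounts for transcript length, the ratio of PSAP to VSIR ran from 95.6 in SCDCL 17 to 400 in SCDCL 23, with a median of 121. The ratio of PSAP to CHST3 ran from 77.3 in SCDCL 11 to 217 in SCDCL 8, with a median of 140. VSIR and CHST3 had no fixed order, since VSIR was higher in 7 SCDCLs and CHST3 in the other 7. The mean transcript length that was used per library varied from 2591 to 3430 bases for VSIR, 2083 to 2394 for PSAP and 7672 to 7802 for CHST3.

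Whether the 3 neighbours varied together among the SMAD4-expressing SCDCLs was tested in 3 pairs, on log2(CPM + 1), with two-sided permutation p-values and Benjamini-Hochberg adjustment over the 3. No pair passed. VSIR and CHST3 had Pearson's r = 0.51 (p = 0.0614, adjusted p = 0.184) and Spearman's rho = 0.44 (p = 0.117, adjusted p = 0.175). VSIR and PSAP had r = 0.36 (p = 0.203, adjusted p = 0.237) and rho = 0.50 (p = 0.0699, adjusted p = 0.175). PSAP and CHST3 had r = 0.34 (p = 0.237, adjusted p = 0.237) and rho = 0.30 (p = 0.303, adjusted p = 0.303).

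The value for VSIR and PSAP depended on 1 clone. SCDCL 23 had the lowest VSIR of the 14, at 7.25 TPM, and the second highest PSAP, at 2902 TPM. Without it, r of this pair was 0.70 (permutation p = 0.00700, adjusted p = 0.0210), and without the 2 SCDCLs farthest from the median of VSIR it was 0.86 (p = 0.000330, adjusted p = 0.000990). Leaving out each of the other SCDCLs in turn gave no adjusted p under 0.05. Without the same 2, SCDCLs 18 and 23, r of VSIR and CHST3 was 0.41. For PSAP and CHST3 the 2 farthest from the median of PSAP were SCDCLs 14 and 22, and r without them was 0.07. No correlation was computed in the SMAD4-low SCDCLs, in which the median of each gene was under 10 counts.

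**Figure D2:**
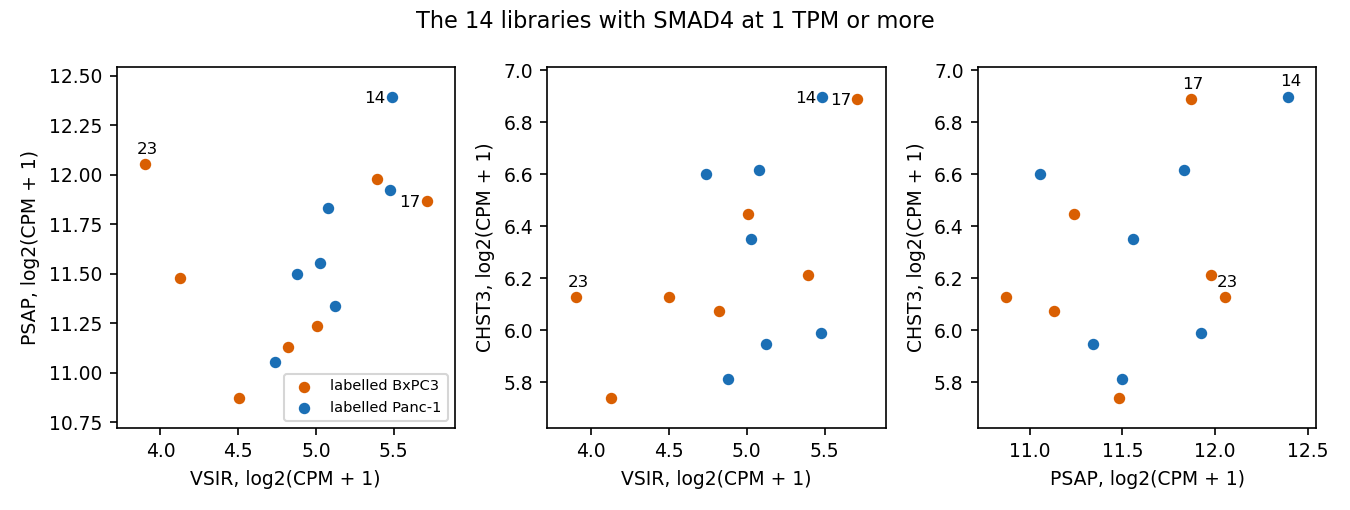
Each panel plots 2 of the 3 genes against each other, as log2(CPM + 1), in the 14 SMAD4-expressing SCDCLs, coloured by label, with SCDCLs 14, 17 and 23 numbered. SCDCL 23 lies apart from the other 13 in the panel of VSIR and PSAP, where r was 0.36 with it and 0.70 without it.

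Of the genes whose levels followed those of each gene most closely, those with a position in the annotation lay on other chromosomes. Among 13656 genes that averaged 1 CPM or more in the 14 SMAD4-expressing SCDCLs, VSIR was most like CCM2L (r = 0.92), the cathepsin gene CTSH (0.91) and the serine protease gene TMPRSS2 (0.91). PSAP was most like an unnamed gene, ENSG00000276595 (0.87), and was also close to FUCA2, a fucosidase gene (0.85). CHST3 was most like the phosphatase gene PTPRJ (0.78), the inflammasome adaptor gene PYCARD (0.76) and FZD2, a WNT receptor gene (0.75). PSAP took rank 2181 and CHST3 rank 1003 among the genes most like VSIR. These correlations are a description, as each was the largest of many and all points share the same 14 libraries.

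The low stretch reached beyond the 3 genes on both sides. From CDH23 to ANAPC16, 839 kb hold 9 genes of the table, of which 8 code for proteins. CDH23, which also holds VSIR in its body, lay between 0 and 0.0383 TPM in the SMAD4-low SCDCLs (median 0.00919) and between 0.315 and 3.43 TPM (median 1.22) in the SMAD4-expressing ones. SPOCK2, a matrix proteoglycan gene beyond CHST3, had a median of 0 and a highest level of 0.131 TPM against 0.727 to 3.08 TPM. The levels of both genes did not overlap between the sides, although both were low where they were expressed. C10orf105, inside CDH23 and sharing 3505 exon bases with it, reached at most 0.03 TPM in any SCDCL, so nothing can be said of it.

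Further along, ANAPC16 and ASCC1 were low but detected in the SMAD4-low SCDCLs. ANAPC16, a subunit gene of the anaphase-promoting complex, lay between 0.196 and 0.866 TPM (median 0.461) against 80.0 to 133 TPM (median 116). ASCC1, a subunit gene of a complex that acts in transcription and DNA repair, lay between 0.396 and 1.74 TPM (median 1.23) against 63.8 to 85.4 TPM (median 75.4). In the SMAD4-low SCDCLs they reached 30.2 and 52.2 estimated counts, whereas PSAP, the most abundant of the 8 in the other SCDCLs, had none. The 2 genes lie on opposite strands and share 139 exon bases. The libraries were strand-specific, but the strand setting of the quantification is not given in the sources used here, so reads from these bases may have been divided between them.

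Outside this stretch, the neighbouring protein-coding genes were expressed in both groups, except that UNC5B stayed under 1 TPM in the SMAD4-expressing SCDCLs. SLC29A3, a nucleoside transporter gene that ends 15.5 kb before CDH23, lay at 3.52 to 6.13 TPM in the SMAD4-low and 1.63 to 9.36 TPM in the SMAD4-expressing SCDCLs. DDIT4, a stress-induced inhibitor of mTOR that starts 38.1 kb past ANAPC16, lay at 23.7 to 105 TPM and 13.6 to 279 TPM. Both pairs of ranges overlapped. DNAJB12, a chaperone gene, lay at 21.7 to 29.7 TPM against 26.8 to 39.9 TPM, and MCU, the channel gene of the mitochondrial calcium uniporter, at 15.7 to 27.7 TPM against 13.8 to 24.8 TPM. These also overlapped, and the netrin receptor gene UNC5B ran the other way, at 2.04 to 9.05 TPM in the SMAD4-low and 0.134 to 0.643 TPM in the SMAD4-expressing SCDCLs. SGPL1 lay at 27.0 to 36.3 TPM against 33.6 to 56.2 TPM, and PCBD1 at 51.2 to 94.1 TPM against 99.9 to 156 TPM.

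Of the 21 genes of the table within 1 Mb of PSAP, 16 code for proteins, and 15 of these averaged 1 TPM or more on a side of the split. Among the 15, 8 were higher in every SMAD4-expressing SCDCL than in any SMAD4-low one, 1 was higher in every SMAD4-low one and 6 overlapped. The 8 include VSIR, PSAP and CHST3, which were chosen for this pattern, and 5 of the other 12 genes were of this kind. Among 15569 genes that averaged 1 TPM or more on either side, 15.6% were higher in every SMAD4-expressing SCDCL and 15.1% in every SMAD4-low one. Near zero here means under 1 TPM in every SMAD4-low SCDCL, with a mean of at least 1 TPM in the SMAD4-expressing ones. By this rule 6 of the 21 genes were near zero, including the 3 genes themselves. The share of 1.37% given above holds for a stricter rule, at least 5 TPM in every SMAD4-expressing SCDCL. No share over all genes was counted by the rule used here.

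**Figure D3:**
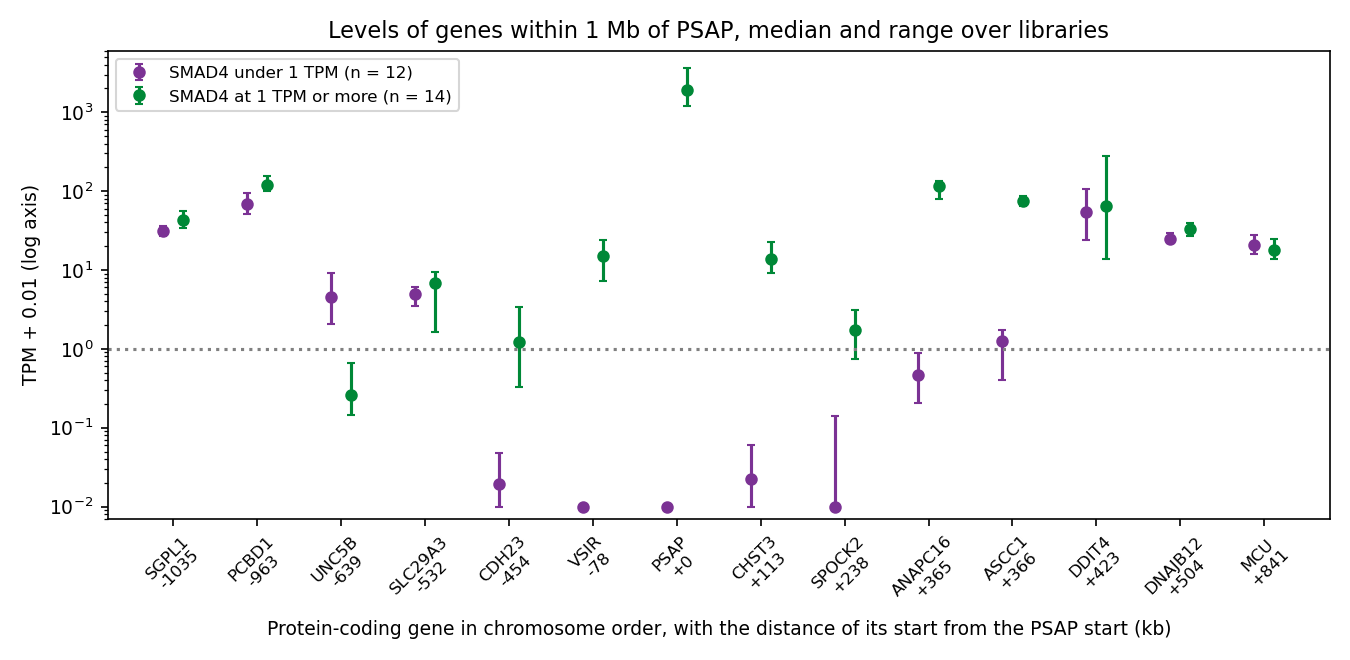
Median and range of TPM + 0.01 on a log axis for 14 protein-coding genes within 1 Mb of PSAP, in chromosome order with the distance of each start from the PSAP start in kb, for the 12 SMAD4-low and 14 SMAD4-expressing SCDCLs, with a dotted line at 1 TPM. The SMAD4-low values drop from SLC29A3 (median 4.95 TPM) to CDH23 (0.00919 TPM), are 0 at VSIR and PSAP, and return at DDIT4 (53.7 TPM).

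Runs of consecutive expressed genes that are near zero on 1 side were also counted over the genome. Of the 129 genes near zero in the SMAD4-low SCDCLs, 3 runs had 3 genes, namely VSIR, PSAP and CHST3 on chromosome 10, ME2, SMAD4 and MEX3C on chromosome 18, and RIPK4, C2CD2 and ZBTB21 on chromosome 21. The run on chromosome 10 is the set chosen for this pattern, and the run on chromosome 18 holds SMAD4, which defines the split. Their places in this count are therefore no independent result. A further 4 runs had 2 genes. Over the whole genome 13 genes were at exactly 0 in all 12 SMAD4-low SCDCLs and at 5 TPM or more in each of the other 14. PSAP and VSIR are 2 of these 13, and both were chosen for levels near zero in these SCDCLs.

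The enzymes that need saposins stayed expressed where PSAP was at 0. All 11 genes of this list, which codes for lysosomal enzymes and cofactors of sphingolipid breakdown, were expressed, and none passed the label test, with a median log2 fold change of -0.03 between the labels against -0.01 over all 16008 genes. Between the sides of the split, 9 of 11 overlapped, 2 were higher in every SMAD4-low SCDCL and 0 in every SMAD4-expressing one, where the shares over all genes were 15.1% and 15.6%. GLB1, the beta-galactosidase gene, lay at 68.8 to 140 TPM in the SMAD4-low SCDCLs against 17.5 to 48.7 TPM, and ASAH1, the acid ceramidase gene, at 65.4 to 131 TPM against 18.1 to 43.4 TPM. ASAH1 was named after its values were seen. The hexosaminidase gene HEXA (168 to 295 TPM against 86.3 to 174 TPM) and the alpha-galactosidase gene GLA (75.9 to 171 TPM against 102 to 207 TPM) overlapped.

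Of 14 genes that sort prosaposin or work beside it, 12 had a mean of at least 1 TPM on a side. In 3 of them every SMAD4-low SCDCL was higher (15.1% over all genes), in 1 every SMAD4-expressing one (15.6%), and 8 overlapped. GRN, whose product progranulin binds prosaposin, lay at 389 to 1499 TPM in the SMAD4-low SCDCLs against 99.4 to 213 TPM, and LRP1, an uptake receptor gene, at 9.09 to 28.9 TPM against 0.896 to 4.20 TPM. Chosen after their values were seen, SCARB2, a lysosomal membrane gene, lay at 74.0 to 144 TPM against 37.8 to 72.1 TPM, and TMEM106B, also lysosomal, at 38.2 to 80.0 TPM against 133 to 276 TPM. The protease gene CTSD, whose product helps to cut prosaposin, lay at 270 to 578 TPM against 487 to 1776 TPM, and LAMP1 and LAMP2 overlapped as well. By label none of the 13 tested genes passed, with a median log2 fold change of -0.04.

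Other ligands of the B7 family differed among themselves. Of 9, 6 were expressed, of which 3 were higher in every SMAD4-low SCDCL (15.1% over all genes), 1 in every SMAD4-expressing one (15.6%), and 2 overlapped. CD274, which encodes PD-L1, lay at 4.35 to 23.5 TPM in the SMAD4-low SCDCLs and at 0 to 0.932 TPM in the SMAD4-expressing ones. CD86 lay at 0.874 to 7.02 TPM against 0 in all 14, and PDCD1LG2, which encodes PD-L2, at 0.788 to 4.84 TPM against 0 to 0.0565 TPM. ICOSLG was the gene that stood with VSIR, at 0.413 to 1.12 TPM against 2.85 to 9.78 TPM, and CD276 and NCR3LG1 overlapped. None of the 6 tested passed by label, and their median log2 fold change was -0.11.

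Partners reported for VISTA were mostly low in both groups. Of 5 genes, IGSF11, SELPLG and VSIG8 stayed under 1 TPM in every SCDCL. LGALS9, which encodes galectin-9, lay at 0.869 to 34.5 TPM in the SMAD4-low SCDCLs against 0.231 to 2.22 TPM, which overlap. LRIG1 lay at 3.19 to 13.4 TPM against 0.197 to 2.56 TPM, which do not. Of these 2 expressed genes, 1 was thus higher in every SMAD4-low SCDCL (15.1% over all genes) and 0 in every SMAD4-expressing one (15.6%). Of the 3 genes tested by label none passed, with a median log2 fold change of 0.08.

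Of the 8 chondroitin sulfotransferases, 7 were expressed on a side, CHST3 among them, and CHST13 stayed at or below 0.507 TPM in every SCDCL. Of the 7, 5 overlapped, 1 was higher in every SMAD4-low SCDCL (15.1% over all genes) and 1, CHST3, in every SMAD4-expressing one (15.6%). CHST12 lay at 21.3 to 48.1 TPM in the SMAD4-low and 19.2 to 45.5 TPM in the SMAD4-expressing SCDCLs, CHST14 at 22.2 to 33.2 TPM against 25.9 to 41.7 TPM, and CHST15 at 12.3 to 23.6 TPM against 13.8 to 51.4 TPM. CHST7, which acts on the same position as CHST3, lay at 6.77 to 15.6 TPM against 6.71 to 18.5 TPM. UST, which sulfates uronic acid residues, was higher in every SMAD4-low SCDCL, at 4.73 to 9.94 TPM against 0.0262 to 0.472 TPM. The place of CHST3 in this count was fixed by its choice. By label, 0 of 7 passed the label test, with a median log2 fold change of 0.06.

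Of 18 genes that build the chain and supply sulfate, 16 were expressed, of which 4 were higher in every SMAD4-expressing SCDCL (15.6% over all genes), 3 in every SMAD4-low one (15.1%), and 9 overlapped. SLC26A2, the sulfate transporter gene, lay at 3.33 to 7.39 TPM in the SMAD4-low SCDCLs against 32.3 to 150 TPM, and CSGALNACT1, which starts the chain, at 0.216 to 1.39 TPM against 2.11 to 22.1 TPM. DSE, the epimerase gene that makes dermatan sulfate, lay at 37.5 to 60.9 TPM against 1.23 to 3.97 TPM, and CHPF, a polymerizing factor gene, at 62.8 to 95.8 TPM against 8.68 to 48.9 TPM. B3GAT3 and SLC35B2, a linker and a sulfate donor transport gene, overlapped, and XYLT1 stayed at or below 0.395 TPM in every SCDCL. By label, 0 of 16 tested genes passed, with a median log2 fold change of -0.03.

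Of 13 core proteins that can carry chondroitin sulfate, 11 were expressed, with 5 higher in every SMAD4-low SCDCL (15.1% over all genes), 1 in every SMAD4-expressing one (15.6%) and 5 overlapping. VCAN, the versican gene, had a median of 46.2 TPM and a highest level of 98.8 TPM in the SMAD4-low SCDCLs against 0 to 0.195 TPM, and SRGN, the serglycin gene, at 74.1 to 347 TPM against 0.0712 to 38.1 TPM. SDC1 and SDC4, of the syndecans, lay at 219 to 384 TPM against 69.4 to 153 TPM and at 202 to 1027 TPM against 60.0 to 127 TPM. APLP2 lay at 1223 to 2293 TPM against 492 to 1021 TPM, and BGN, the biglycan gene, at 0 to 0.122 TPM against 0.146 to 5.95 TPM. CD44, the most abundant of the list, overlapped at 370 to 1378 TPM against 1290 to 2585 TPM. None of the 11 tested genes passed by label, with a median log2 fold change of -0.12.

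**Figure D4:**
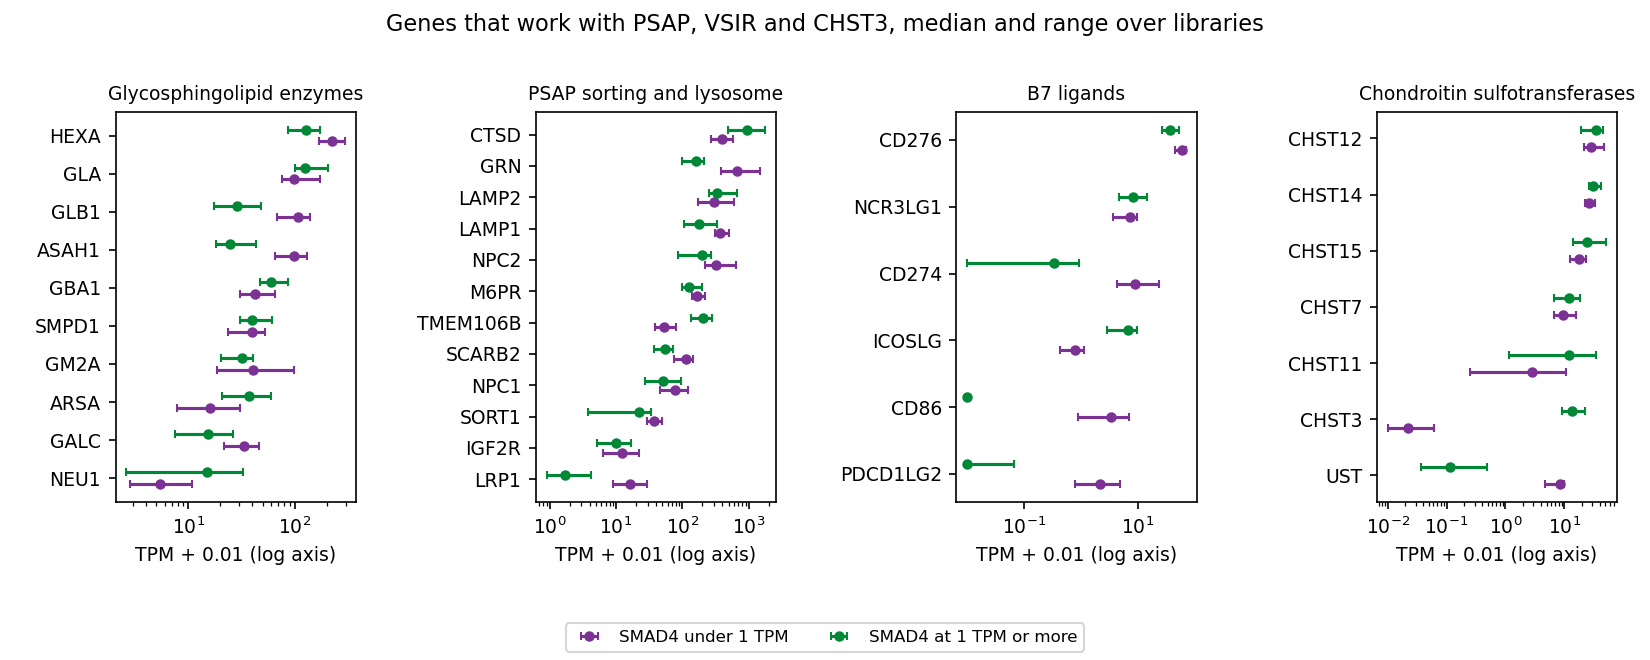
Median and range of TPM + 0.01 on log axes for expressed genes of 4 lists, in the 12 SMAD4-low and 14 SMAD4-expressing SCDCLs. Most lysosomal enzymes and sulfotransferases overlap between the sides, while CD274, CD86, PDCD1LG2, LRP1, GRN and UST lie higher in the SMAD4-low SCDCLs and ICOSLG, TMEM106B and CHST3 lie higher in the SMAD4-expressing ones.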

How the data were processed

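Messenger RNA of 26 SCDCLs was sequenced, 1 library each, from poly-A enriched, strand-specific preparations. The authors quantified transcripts with kallisto 0.46.1 against Ensembl 103 on GRCh38 and deposited a table of 41078 genes. The deposited TPM values are relative to transcript length and library. The deposited estimated counts were derived by the authors from TPM through the mean length of each gene's transcripts, so they are not raw read counts. A further 780 columns, which hold resampled estimates per library, were not used. Identifiers were matched to GENCODE 44, which gave 36315 genes a symbol and position.

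The 3 genes, the gene lists and the rule for named genes were chosen with earlier results of these data known. Named were the 3 genes, check genes, protein-coding neighbours within 1 Mb of PSAP with a mean of at least 1 TPM on a side, up to 4 genes per list by mean TPM and any with sides that did not overlap and a 4-fold ratio of means, and the 3 genes most like each member. The groups tested came from the labels, and p-values measure the spread between clones. Estimated counts were rounded and tested with edgeR 4.0.16 (TMM, filterByExpr, quasi-likelihood, Benjamini-Hochberg), with DESeq2 1.42.0 and limma 3.58.1 in R 4.3.3 as alternatives. CPM used TMM factors, except that the floor of 3 counts, pooled CPM, ratios to these and the filter at 5 CPM used library totals. Correlations used 100000 permutations (20000 with 1 library left out) in Python 3.11.15 with scipy 1.17.1, and figures used matplotlib 3.10.9. Tests were run on simulated data first. Promoter windows came from RefSeq, in which VSIR and CHST3 were matched and PSAP is named only. Response to gemcitabine is not given by the labels, so no comparison by response was made, and protein data were not analysed here. Depth was 27035724 to 34945608 estimated counts per library, and levels near 3 counts are limited by counting error. A few genes that the rule names are not reported here.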

Additional observations from a re-analysis of the deposited data

Results flagged for a closer look

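In 1 of 46 groups of 4 to 10 SCDCLs, formed by label and side of the SMAD4 split for each neighbour of PSAP, 1 library stood apart from the rest by Dixon's ratio on log2(TPM + 1), and chance alone gives about 1 in 20 such groups. ANAPC16 was at 80.0 TPM in SCDCL 20, which is labelled BxPC3 and SMAD4-expressing, against 109 to 133 TPM in the other 6 of its group, a gap of 0.605 of the whole range on that scale, past the critical value of 0.568. On TPM itself the ratio was 0.544, which does not pass it. Groups with a median under 1 TPM were left out of this check. VSIR, PSAP and CHST3 had no such library in their SMAD4-expressing groups, and their SMAD4-low groups were not tested.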

How the results depend on the processing

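The 0 calls between the labels were also 0 with limma, size factors by median of ratios, no filter, a filter at a mean of 5 CPM or SMAD4 side as a covariate, wherever each was run. DESeq2 called 1 gene in all 26 SCDCLs (MYH16, adjusted p = 0.0127), 36 in the SMAD4-low and 1 in the SMAD4-expressing SCDCLs (KLHL4, adjusted p = 0.00330), none of them VSIR, PSAP or CHST3, and the cause was not tested. Leaving out each SCDCL in turn gave 0 to 0 calls in each comparison. Between the labels in all 26, the log2 fold change of VSIR reversed with limma (-0.23), and those of PSAP and CHST3 with the side as a covariate (0.14 and 0.094). Leaving out each SCDCL gave -0.17 to 0.31 for VSIR, -0.35 to 0.10 for PSAP and -0.35 to 0.11 for CHST3. In the SMAD4-expressing SCDCLs it gave 0.11 to 0.44, -0.017 to 0.22 and -0.016 to 0.23, below 0 for the last 2 only without SCDCL 14. None of these passed the threshold, so no direction by label is claimed.

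The difference between the sides kept its direction in every setting. For VSIR, PSAP and CHST3 it was 7.19, 14.3 and 6.93 with a pseudocount of 0.1, 1.98, 8.62 and 1.93 with a pseudocount of 5, and 4.95, 11.6 and 6.15 on log2(CPM + 1), since values near 0 carry the pseudocount. Leaving out each SCDCL gave 3.91 to 4.03, 10.876 to 10.998 and 3.84 to 3.93. A difference on the resampled counts of kallisto is not reported here. Splitting at 10 CPM of SMAD4 gave the same SCDCLs. The correlation of VSIR and PSAP passed only without the 2 farthest SCDCLs (r = 0.86) or, in runs added after seeing the data that left out each SCDCL (0.25 to 0.70), without SCDCL 23. Leaving each out gave r of 0.39 to 0.62 for VSIR and CHST3 and 0.11 to 0.47 for PSAP and CHST3. Near-zero neighbours numbered 5 to 8, against 6, with other windows and thresholds. No paired analysis was possible because the labels share no replicate numbers. Depth limits CHST3 in the SMAD4-low SCDCLs, where it rests on 33.7 counts in all.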
